A study of Homo sapiens with 4 samples.

Results

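The 5 genes that encode the subunits of NF-κB (NFKB1, NFKB2, REL, RELA and RELB) were examined for the chromatin accessibility of their loci in SKBR3 cells, an established HER2-amplified human breast cancer line, with and without TWEAK. Genes were taken by their GENCODE v44 names, and every accessible site within 100 kb of any annotated transcript start of a member was counted, a site being a set of peaks from any of the 4 ATAC-seq peak lists joined by an overlap of at least 1 bp. This gave 291 sites out of 307691 in the whole series. Of these, 33 lay around NFKB1 (ENSG00000109320.14, chr4:102501330-102617302, plus strand), 46 around NFKB2 (ENSG00000077150.21, chr10:102394110-102402524, plus strand), 40 around REL (ENSG00000162924.16, chr2:60881491-60931612, plus strand), 86 around RELA (ENSG00000173039.20, chr11:65653599-65663090, minus strand) and 86 around RELB (ENSG00000104856.15, chr19:45001461-45038192, plus strand). All coordinates are in hg38. Distance alone tied a site to a member, and a start site of a member was the nearest one for only 67 of the 291. By annotation, 125 sites lay in a promoter of some gene, 20 in an exon, 91 in an intron and 55 between genes.

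ATAC-seq marks open chromatin through the insertion of adapters by the Tn5 transposase. Untreated SKBR3 cells (2 libraries) were compared with SKBR3 cells given 10 ng/ml TWEAK for 48 h, with TWEAK replenished after 24 h (2 libraries). The protocol shared by all 4 samples had cells seeded in serum-containing medium and starved for 8 h before treatment. A single HER2-positive line was profiled. The study's methods describe the ATAC-seq replicates of cell lines as biological, with 2 per group in these files.

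NF-κB acts as dimers of 5 related proteins that share a Rel homology domain for DNA binding and dimerisation. RELA, RELB and REL carry their own transactivation domains, whereas NFKB1 and NFKB2 encode precursors, p105 and p100, that are processed to the DNA-binding subunits p50 and p52. In the canonical pathway, inhibitor degradation releases dimers such as RELA with p50. In the non-canonical pathway, which TWEAK engages through its receptor Fn14, stabilisation of the kinase NIK leads to processing of p100 and to RELB dimers with p52. Several subunit genes are themselves known targets of NF-κB, which recognises decameric κB elements.

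The sequences below are the κB consensus matches that lay in the 250 bases upstream of RefSeq start sites of subunit genes (GRCh38.p14), followed by the DNA at the 5 sites with the largest positive rank differences. They are shown because the promoter values and the largest positive differences described afterwards refer to them. The RefSeq promoter table held 8 entries for 4 of the members and none for RELB. A κB match was found upstream of NFKB1, NFKB2 and REL, and none lay upstream of RELA. By entry, 4 of the 8 held a match, beside 9.97% of all 34961 promoters of the table. Each promoter element is written on the plus strand with the match in capitals and 10 flanking bases on either side.
NFKB1, chr4:102501300-102501329: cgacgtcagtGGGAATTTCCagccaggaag
NFKB2, upstream of the start at 102394578, chr10:102394461-102394490: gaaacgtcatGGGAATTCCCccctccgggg
NFKB2, upstream of the start at 102394578, chr10:102394490-102394519: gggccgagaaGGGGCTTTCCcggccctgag
NFKB2, upstream of the start at 102395705, chr10:102395519-102395548: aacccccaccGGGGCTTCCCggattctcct
NFKB2, upstream of the start at 102395705, chr10:102395674-102395703: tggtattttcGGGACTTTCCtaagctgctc
REL, chr2:60881517-60881546: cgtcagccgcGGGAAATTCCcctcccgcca
The first NFKB2 element and the REL element each contain a further match shifted by 1 base. All 6 elements lay inside sites that were present in all 4 lists, untreated and TWEAK alike.

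The 5 sites with the largest positive rank differences, 2 of them in promoter regions of other genes, carried the following 201 bases around the centre of their best-ranked peak, again on the plus strand and with κB matches in capitals.
RELB −10.3 kb, chr19:44991060-44991260: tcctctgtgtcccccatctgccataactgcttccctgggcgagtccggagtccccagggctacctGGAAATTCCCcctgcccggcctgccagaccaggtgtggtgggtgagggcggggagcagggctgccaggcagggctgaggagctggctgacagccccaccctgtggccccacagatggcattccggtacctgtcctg
NFKB2 +11.7 kb, chr10:102405725-102405925: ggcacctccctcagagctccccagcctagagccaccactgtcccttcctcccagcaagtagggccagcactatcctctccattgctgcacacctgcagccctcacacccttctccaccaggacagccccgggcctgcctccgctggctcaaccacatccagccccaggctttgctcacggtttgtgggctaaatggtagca
NFKB2 +99.1 kb, chr10:102493139-102493339: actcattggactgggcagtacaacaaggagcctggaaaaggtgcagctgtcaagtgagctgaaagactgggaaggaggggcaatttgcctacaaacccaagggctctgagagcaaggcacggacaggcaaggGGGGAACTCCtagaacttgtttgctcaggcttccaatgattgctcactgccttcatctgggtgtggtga
REL −22.9 kb, chr2:60858506-60858706: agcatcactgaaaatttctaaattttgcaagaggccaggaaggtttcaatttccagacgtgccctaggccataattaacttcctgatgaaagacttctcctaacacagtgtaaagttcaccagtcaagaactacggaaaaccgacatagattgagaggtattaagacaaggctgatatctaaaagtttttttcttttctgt
REL −22.3 kb, chr2:60859118-60859318: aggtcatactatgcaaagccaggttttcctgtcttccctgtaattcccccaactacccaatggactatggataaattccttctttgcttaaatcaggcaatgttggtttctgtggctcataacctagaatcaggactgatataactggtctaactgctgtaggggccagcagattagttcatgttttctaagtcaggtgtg
The match at RELB −10.3 kb reads GGGAATTTCC on the other strand, which is the decamer of the NFKB1 promoter and of the shifted match in the REL promoter. The NFKB2 +99.1 kb site held the match GGGGAACTCC. No κB match and no AP-1 match (TGACTCA or TGAGTCA, either strand) lay in the other 3 windows.

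The deposited lists gave each 501 bp peak a −log10 p-value. Each value corresponded to a whole-number pileup (the number of fragments stacked at the peak) tested against 1 background level per list, so pileups could be recovered. The strength of a peak was measured by 2 quantities, first its rank percentile within its own list, where 100 is the strongest, and second its pileup divided by the background of the list. The lists held 195388 to 228734 peaks, with backgrounds of 1.85 to 3.59 and smallest pileups of 7 to 10, and thus did not share an enrichment threshold. In the identity check, all 5 epithelial and HER2-positive promoters had a peak in all 4 lists at ranks of at least 95.8, with ERBB2 at 100 throughout. The leukocyte marker CD3E had none, whereas the promoters of CDH5 and COL1A1 were open in all 4 lists, so the marker list did not separate cell types cleanly at the level of promoter accessibility.

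The number of subunit peaks did not separate the treatments. There were 196 and 217 peaks in the untreated libraries (206.5 ± 14.8, SD, n = 2) and 215 and 209 in the TWEAK libraries (212.0 ± 4.24, n = 2), a difference of 5.5 (two-sided exact permutation test, p = 1) that became −5.0 without the first untreated library. With 2 libraries per group the smallest p this test allows is 0.333, and no single value below can pass a threshold of 0.05. By gene, NFKB2 was the member with more peaks in both TWEAK libraries, with 29 and 30 in the untreated and 38 and 44 in the TWEAK lists, a pattern found at 9.15% of 19970 protein-coding genes. NFKB1 had 23 and 22 against 24 and 23, and REL had 22 and 25 against 25 and 24. RELA had 65 and 75 against 68 and 60, and RELB had 57 and 65 against 60 and 58. For these last 4 genes the 2 groups overlapped or met. Within 1 kb of an NFKB2 start the lists held 5 and 3 untreated and 5 and 8 TWEAK peaks, so that there the groups met too.

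Sites in all 4 lists followed the series as a whole. All 4 lists held 134 of the 291 sites (46.0%). Of these 134, 22 had a higher rank in both TWEAK libraries than in either untreated library (16.4%, against 15.8% of the 131751 sites of the whole series in all 4 lists), 51 had a lower rank (38.1% against 35.4%) and the groups overlapped at 61. On the scale of pileup over background the balance turned, with 50 sites higher and 18 lower (backgrounds 34.8% and 12.2%). Across the series the median difference was −1.75 percentile points on the rank scale and 0.14 on the log2 pileup scale, and over the subunit sites it was −1.55 and 0.12. On neither scale did the direction shown by most subunit sites depart from that of all sites. Values of single sites below are not adjusted for these medians unless stated. Over the 134 sites the median rank was 78.47 and 78.86 without TWEAK and 77.35 and 72.03 with it, a difference of −3.98 points (exact permutation p = 0.333). Without the second TWEAK library, the 144 sites in the other 3 lists gave a difference of 0.98, whereas over the 134 sites the first TWEAK library (77.35) was still below both untreated ones.

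**Figure D1:**
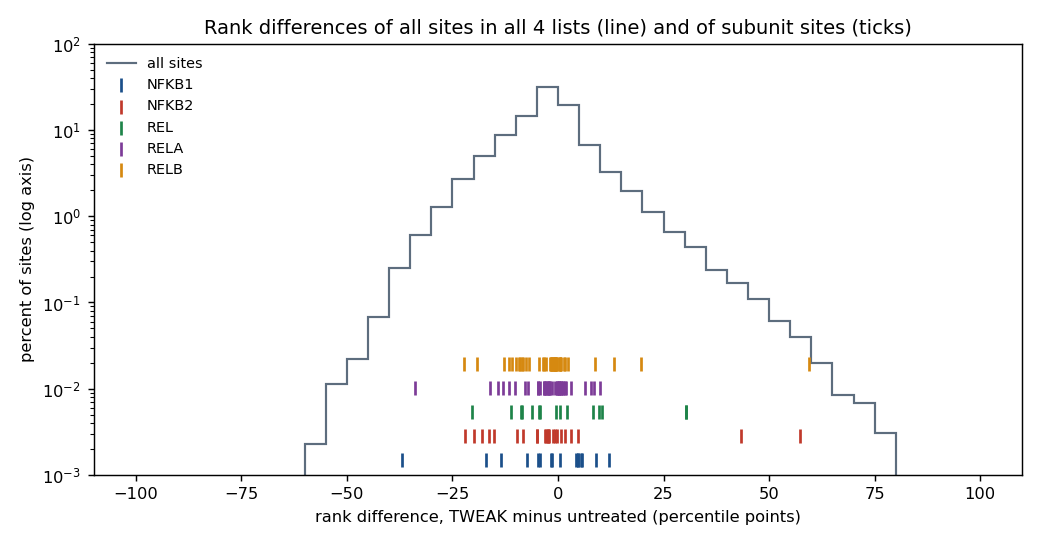
The line gives the percent of all 131751 sites in all 4 lists per 5-point bin of rank difference (mean TWEAK minus mean untreated percentile, log axis), and each tick is a subunit site, coloured by gene. Most ticks lie near 0, and 3 ticks lie beyond 40, namely RELB at 59.5 and NFKB2 at 57.3 and 43.4.

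For scale, replicates of the same group differed by a median of 3.63 points in untreated and 4.08 in TWEAK cells over all sites in all 4 lists, with 95th percentiles of 20.7 and 21.9. A higher site exceeded 21.9 points at 5 of the 134 subunit sites (3.73%, against 2.33% in the series), and a lower site exceeded it in the other direction at 4 (2.99% against 3.66%). The 5 higher sites were divided between RELB, NFKB2 and REL.

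**Figure D2:**
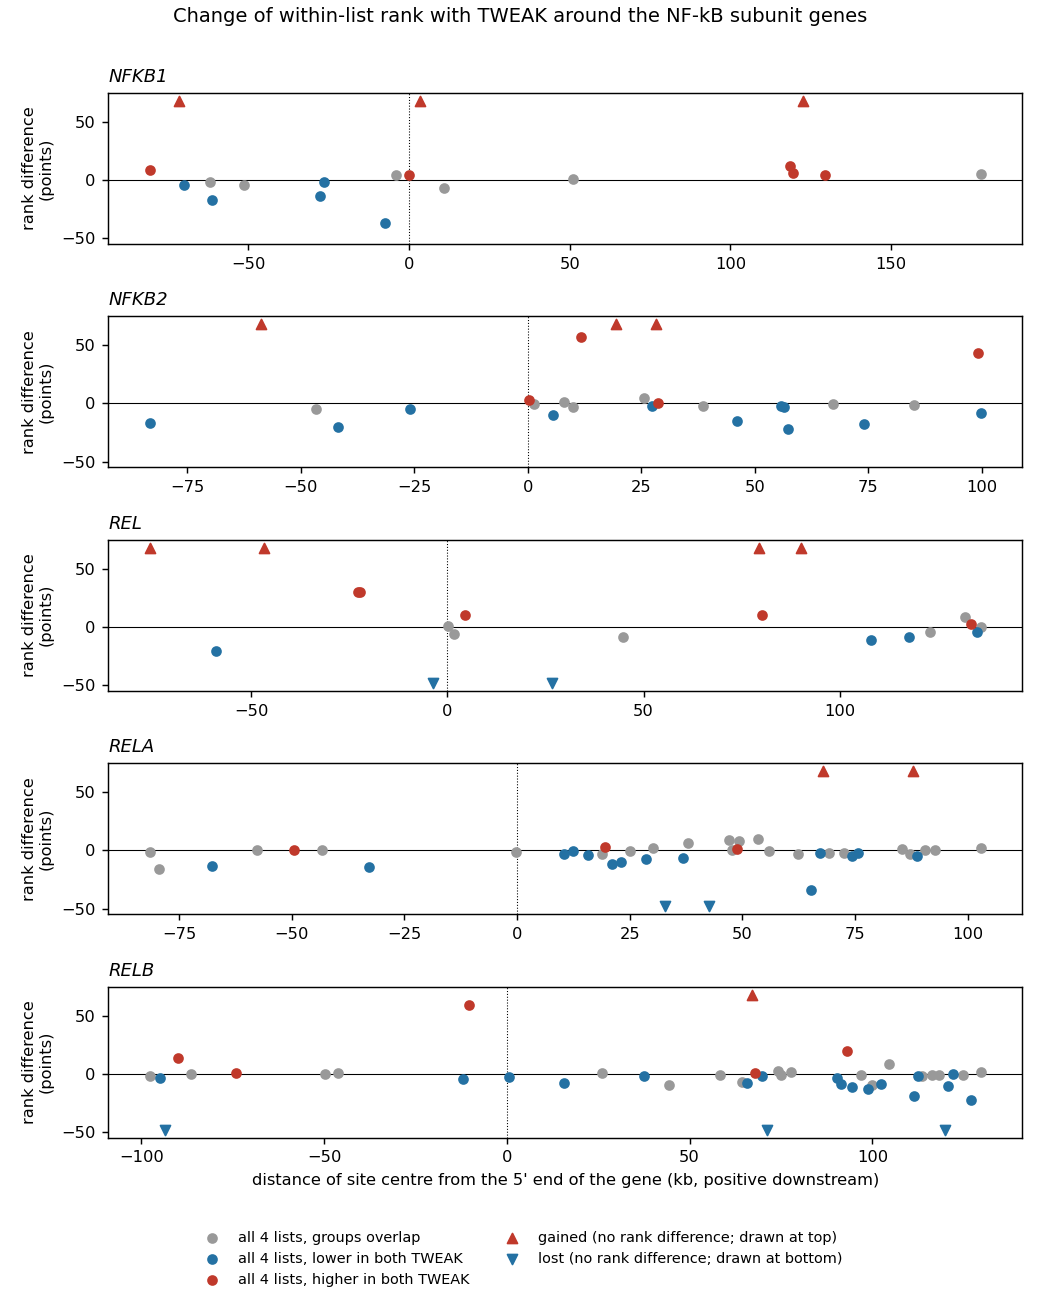
Each panel shows the sites around 1 subunit gene by distance from its 5′ end (kb, x axis) and rank difference (percentile points, y axis). Circles are sites in all 4 lists, triangles at the top are sites found only in both TWEAK lists and triangles at the bottom sites found only in both untreated lists, both drawn without a rank difference. The high circles belong to NFKB2, REL and RELB, and no circle of NFKB1 or RELA exceeds 12.1.

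The best-ranked promoter peaks of the precursor genes NFKB1 and NFKB2 were stronger in both TWEAK libraries on both scales. The best-ranked NFKB1 promoter peak had pileups of 105 and 77 in untreated and 120 and 101 in TWEAK libraries. Over background these were 29.3 and 34.4 against 45.6 and 54.7, which is 1.57-fold by geometric means (31.9 ± 3.66 against 50.1 ± 6.44, SD, n = 2 each). Its rank was 84.9 and 86.2 without and 89.9 and 90.5 with TWEAK, so that the groups did not overlap. The NFKB2 promoter peak had pileups of 154 and 100 against 156 and 122, or 42.9 and 44.7 against 59.2 and 66.1 over background, which is 1.43-fold. Its ranks were 90.7 and 89.9 against 93.4 and 93.2, again without overlap. Divided by the median fold of all sites in all 4 lists, the 2 ratios were 1.43 for NFKB1 and 1.3 for NFKB2. Such differences were common, since a rank difference as large was found at 15.4% of all sites in all 4 lists for NFKB1 (4.7 points) and at 19.5% for NFKB2 (3.0 points), and a log2 difference as large at 11.6% and 17.2%. The NFKB2 rank difference was below the median difference between replicates. The other NFKB2 promoter site with printed κB elements, at +1.5 kb, had ranks of 78.6 and 81.6 without and 80.3 and 78.3 with TWEAK, and 20.9 and 26.4 against 26.2 and 28.7 over background, so that its groups overlapped on both scales.

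Among the subunits with transactivation domains, the promoter peaks differed less. REL, the c-Rel gene, had the strongest promoter of the family, with pileups of 282 and 183 in untreated and 229 and 182 in TWEAK libraries. Over background this was 78.6 and 81.9 against 87.0 and 98.5 (1.15-fold, or 1.04 after division by the all-site median), at ranks of 97.2 and 96.5 against 97.2 and 97.3. RELA, which encodes p65, gave 39.9 and 35.8 against 43.3 and 38.4 over background, with ranks of 89.6 and 86.8 against 89.2 and 84.4, and its groups overlapped on both scales (1.08-fold, or 0.981 after division by the all-site median). At RELB, the partner of p52, the best peak near the start lay about 610 bp downstream in all 4 lists and gave 51.0 and 47.0 against 46.0 and 46.0 over background (0.939-fold, or 0.853 after the same division). Its ranks were 92.9 and 90.6 without and 90.0 and 87.7 with TWEAK, lower in both treated libraries. A further peak over the RELB start itself was listed only in the first untreated library (pileup 124) and the second TWEAK library (pileup 68). Averaged over the 5 promoters, the rank was 91.06 and 90.0 in untreated and 91.94 and 90.62 in TWEAK libraries, a difference of 0.75 points (exact permutation p = 0.667).

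**Figure D3:**
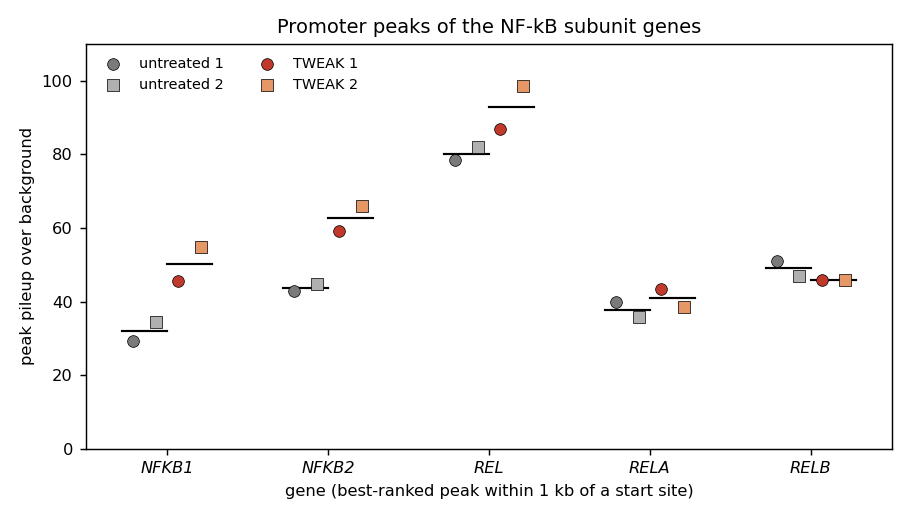
Pileup over background (y axis) of the best-ranked peak within 1 kb of a start of each subunit gene, with 1 point per library and horizontal bars at the group means. The TWEAK points lie above the untreated points at NFKB1 (45.6 and 54.7 against 29.3 and 34.4), NFKB2 and REL, overlap at RELA and lie just below at RELB.

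With all 4 libraries, the largest rank difference of any subunit site lay 10 kb upstream of RELB. The RELB −10.3 kb site (chr19:44990900-44991790) is inside CLPTM1, 478 bp from an annotated start of that gene, and its printed window reaches into a coding exon. Pileups were 19 and 7 in untreated and 62 and 57 in TWEAK libraries. Over background this was 5.30 and 3.13 against 23.5 and 30.9, 6.62-fold, and ranks went from 35.6 and 3.28 to 78.1 and 79.9 (difference 59.5). In the whole series 0.0440% of sites in all 4 lists had a difference as large. The peak of the second untreated library was centred 390 bp from that of the first and is a neighbouring weak peak rather than the same summit, and where joining required an overlap of 250 bp, where weak peaks were left out, or where the lists were limited to the length of the shortest, that library had no peak at this site. Without the second untreated library the difference was 43.3, below those of NFKB2 +11.7 kb (57.0) and NFKB2 +99.1 kb (45.9).

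The next sites belonged to NFKB2. The NFKB2 +11.7 kb site (chr10:102405544-102407197), downstream of the gene and in a promoter region of PSD, had pileups of 12 and 8 in untreated and 43 and 32 in TWEAK libraries. Over background this was 3.35 and 3.58 against 16.3 and 17.3 (4.86-fold), and the rank difference was 57.3, reached by 0.0554% of sites. This merged site chains 8 peaks, although the best peaks of the 4 libraries were centred between 250 and 371 bp from its left end. With the lists limited to the length of the shortest it was no longer in all 4 lists. Joined with all peaks within 500 bp it became part of a wider region whose difference was −2.9, with overlapping groups. The NFKB2 +99.1 kb site (chr10:102492989-102493567), in an intron of ACTR1A, had pileups of 15 and 11 against 44 and 37 (4.03-fold over background). Its ranks were 23.7 and 28.8 without and 70.0 and 69.2 with TWEAK, a difference of 43.4 that 0.295% of sites reached. A start of ACTR1A was nearer to it than any start of NFKB2, and with all peaks within 500 bp joined its difference was 12.5.

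A pair of adjacent intergenic sites stood upstream of REL, with a REL start as the nearest of any gene. At REL −22.3 kb (chr2:60858934-60859497) pileups were 18 and 18 in untreated and 55 and 37 in TWEAK libraries, which over background was 5.02 and 8.05 against 20.9 and 20.0 (3.22-fold). Its rank difference of 30.3 was reached by 1.07% of sites, and it remained higher in both TWEAK libraries in every alternative run. At REL −22.9 kb (chr2:60858333-60858856) pileups were 15 and 11 against 27 and 25 (2.6-fold over background, rank difference 30.4). The groups did not overlap at either site. A further pair of REL sites, chosen after their values were seen, differed by smaller amounts. The REL +80.2 kb site, in an intron of PUS10, was already strong and had pileups of 79 and 60 against 126 and 101 (2.1-fold over background), while the intronic +4.4 kb site had 24 and 12 against 22 and 21 (1.63-fold over background, rank difference 10.3).

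**Figure D4:**
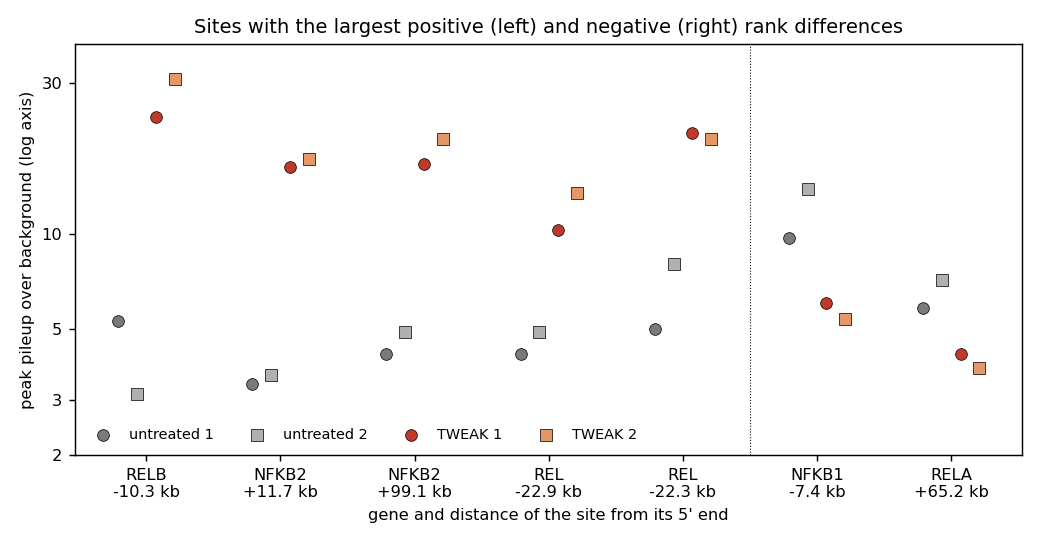
Pileup over background (log axis) in each library at the 5 subunit sites with the largest positive and the 2 with the largest negative rank differences, labelled by gene and distance. At the 5 sites on the left the TWEAK points (10.3 to 30.9) lie above all untreated points (3.13 to 8.05), and at the 2 sites on the right they lie below.

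At RELB, RELA and NFKB1 the remaining higher sites differed by less. The RELB +93.1 kb site, 917 bp from a start of PPP1R37, had pileups of 18 and 12 against 26 and 21 (rank difference 19.6), but these are peaks of different summits, centred 974 and 857 bp from the left end of the site in untreated and 398 and 385 bp in TWEAK libraries. Near the TWEAK summits the first untreated library had a peak of pileup 12 and the second had none. NFKB1 had 2 neighbouring sites beyond its 3′ end, at +118.5 kb (18 and 15 against 27 and 18, rank difference 12.1) and +119.5 kb (86 and 72 against 113 and 89, 5.6, chosen after its values were seen), and 1 far upstream at −80.6 kb in an intron of SLC39A8 (32 and 17 against 30 and 31, 9.0). RELA had no comparable site. Its 3 higher sites differed by at most 3.0 points, at +19.5 kb near SIPA1, and the next was the strong MAP3K11 promoter at +48.7 kb with a difference of 1.2.

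Lower sites were spread over all 5 loci and, apart from 2, were not among the 1% of sites with the most negative differences (2 of 134 were, background 0.998%; at the other end 3 of 134 were, background 1.0%). The NFKB1 −7.4 kb site, intergenic and nearest to an NFKB1 start, had pileups of 35 and 31 in untreated and 16 and 10 in TWEAK libraries (0.493-fold over background, rank difference −36.9, reached by 0.233% of sites). The RELA +65.2 kb site, in an exon of MAP3K11, had 21 and 16 against 11 and 7 (0.615-fold, −33.9, reached by 0.448%), although with all peaks within 500 bp joined the RELA difference was −2.2 and the groups overlapped. Both TWEAK libraries were below both untreated ones at each. For NFKB1 the next site was at −61.3 kb (−17.0) and for RELA at −32.9 kb (−14.2). RELB had its most negative differences at +126.9 kb (−22.2) and +111.4 kb (−19.2), both in introns of MARK4. NFKB2 had them at +57.4 kb near C10orf95 (−22) and at −41.8 kb in GBF1 (−19.9). Inside NFKB2, over an internal annotated start at +5.5 kb and chosen here after its values were seen, pileups were 138 and 82 in untreated and 74 and 46 in TWEAK libraries (0.704-fold over background, rank difference −9.8), so that the gene held a lower site beside its higher promoter. REL had its most negative differences at −58.9 kb (−20.3) and at +108.0 kb in PUS10 (−11.1).

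Sites found in both TWEAK lists and in neither untreated list numbered 13 (4.47%, background 3.60%), and sites with the reverse pattern numbered 7 (2.41%, background 3.79%). They divided as 3 gained and 0 lost for NFKB1, 3 and 0 for NFKB2, 4 and 2 for REL, 2 and 2 for RELA and 1 and 3 for RELB. These sites were weak, with pileups of 7 to 39 at gained and 7 to 27 at lost sites, and 4 gained and 0 lost sites ranked above 50 in both of their lists. A peak of the opposite treatment lay within 1 kb of 8 of the 13 gained and 3 of the 7 lost sites, and with all peaks within 500 bp joined there were 7 gained and 5 lost among 184 sites (backgrounds 3.57% and 3.43%). The balance depended on the libraries, as it did over all sites. There were 22 gained and 42 lost sites among 285 without the first untreated library (backgrounds 6.54% and 15.9%), 23 and 25 among 270 without the second (7.63% and 11.5%), 34 and 20 among 282 without the first TWEAK library (9.09% and 9.29%) and 36 and 12 among 279 without the second (11.6% and 6.56%).

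The gained site best isolated from untreated peaks among those 4 was REL −46.9 kb, intergenic, with TWEAK pileups of 24 and 22, a κB match and no untreated peak within 7662 bp. The other 3 bordered strong peaks, namely NFKB2 +28.2 kb (39 and 23, with an untreated peak of pileup 100 at 23 bp), RELA +87.9 kb near EHBP1L1 (39 and 25, untreated pileup 44 at 100 bp) and RELB +67.0 kb near CLASRP (32 and 25, untreated pileup 268 at 310 bp). The further gained sites of NFKB1 were at −71.5 kb (18 and 19), +3.3 kb in the first part of the gene (12 and 9) and +122.5 kb (21 and 12). NFKB2 gained −58.7 kb in GBF1 (16 and 15, with no untreated peak within 11552 bp) and +19.4 kb in PSD (9 and 8). REL gained −75.9 kb (22 and 15), +79.5 kb (8 and 7) and +90.1 kb (11 and 12), and RELA gained +67.9 kb (8 and 10).

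The lost sites of REL were at −3.6 kb (untreated pileups 27 and 7) and +26.7 kb inside the gene (11 and 8). RELA lost +42.5 kb (11 and 11) and +32.8 kb (14 and 9), both in promoters of PCNX3. RELB lost −93.6 kb (12 and 8), +71.2 kb in an exon of ZNF296 (17 and 17, from peaks centred 250 and 712 bp from the left end of the site) and +119.9 kb in MARK4 (21 and 9), the last with a κB match. With pileups this close to the smallest listed ones, absence from a list means that no peak passed there, not that the DNA was closed.

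κB matches in the central 201 bases were held by 21 of the 291 subunit sites (7.22%, against 6.21% of all sites). They were in 5 of the 22 higher sites and 0 of the 51 lower ones, beside 12.7% and 3.94% in the series. Of the 13 gained sites 1 held a match, beside 20.1% of gained sites in the series, and of the 7 lost sites 1 did, beside 4.28%. The 5 higher sites with a match were the NFKB1 promoter, NFKB2 +99.1 kb, RELA +48.7 kb, RELB −10.3 kb and RELB +93.1 kb. AP-1 matches were in 20 sites (6.87%, against 9.01%), in 2 of the higher sites (22.1% in the series), in 4 of the lower ones (5.99%) and in 0 of the 13 gained ones (16.6%).

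By distance, the 134 sites in all 4 lists lay as 8 within 1 kb of a member start, 17 at 1 to 10 kb, 46 at 10 to 50 kb and 63 at 50 to 100 kb.

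To place the members among other genes, the same windows were drawn around 19970 protein-coding genes, which had a median of 34 sites. A higher site with a difference as large as that of RELB was near 0.631% of genes and as large as that of NFKB2 near 0.806%. For REL this was 13.6%, for NFKB1 49.2% and for RELA 72.0%. Some gained site was near 63.2% of genes, so its presence near a member was common. These shares are a description, since windows of neighbouring genes overlap. By the share of its sites present in each of the 4 lists, the gene most like NFKB2 was CXADR (Euclidean distance 0.0325 among 17620 genes over 4 libraries), like REL it was ROBO3 (0.0205), like RELA it was FXYD4 (0.0120) and like RELB it was RAB11FIP4 (0.00955). NFKB1 was most like a gene listed only by its identifier, ENSG00000273269 (0.0109).

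In a list of 18 other genes of the pathway, 13 had more gained than lost sites within 100 kb, 3 had fewer and 2 had equal numbers, beside 3, 1 and 1 for the 5 subunits and 31.0% of protein-coding genes with more and 38.5% with fewer. The list was chosen with earlier results of these data known. Windows of neighbouring genes in it, such as BIRC2 and BIRC3, can share sites. More gained than lost sites were found for 5 of 6 IκB family genes (NFKBIA, NFKBIB, NFKBIE, NFKBID, NFKBIZ and BCL3). The same held for all 4 genes for kinases or a subunit of a kinase complex (CHUK, IKBKB, MAP3K14 and IKBKG). It also held for 3 of 6 genes for adaptors and ubiquitin enzymes, and 1 of the 2 genes for ligand and receptor. A site among the 1% with the largest positive differences was near NFKBIA (41.4), which encodes the inhibitor IκBα, and near BCL3 (47.0), whose product binds p50 and p52, beside NFKB2 and RELB among the subunits (13.0% of protein-coding genes had one).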

How the data were processed

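ATAC-seq was compared between 2 untreated and 2 TWEAK-treated SKBR3 libraries, grouped by their labels. According to the study's methods and the submitters' processing notes, the authors trimmed reads with Trimmomatic, mapped them to hg38 with Bowtie2, removed mitochondrial and duplicate reads (Picard) and called peaks per library with MACS2; versions and the Tn5 shift were not given in the sources used here. The deposited lists hold 501 bp peaks with an uncorrected −log10 p-value. No read counts were analysed here, so the depth of the libraries is unknown, no count-based differential test was run, and the precision of a value is limited by the 2 libraries per group.

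Pileups were recovered as the whole number whose Poisson upper tail against 1 background per list gave the deposited value, with an offset of at most 0.223% of a pileup step. The method was run on data simulated with that same model, which cannot test whether the model holds for the deposited lists. A different tail convention would shift every pileup by 1. Peaks on chromosomes 1 to 22 and X were merged at an overlap of at least 1 bp and a site took the best peak of each list. Gained sites were in both TWEAK lists and neither untreated list, lost sites the reverse. Higher and lower sites were in all 4 lists with no overlap of groups. Library values were compared by exact two-sided permutation tests. κB (consensus of length 10) and AP-1 matches were searched on both strands in 201 bp windows. Sequences came from the hg38 genome and, for promoters, from RefSeq (GRCh38.p14). Gene models were GENCODE v44. Analyses used Python 3.11.15 with numpy 2.4.6, pandas 2.3.3, scipy 1.17.1 and pyfaidx 0.9.0.4, and samtools 1.23.1.

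The members, the pathway list and the marker list (1 marker of which is not reported here) were chosen with earlier results of these data known, and the 1% limit on rank differences was added after the values were seen. Sites were named by rule: every gained and lost site, the best-ranked peak within 1 kb of a start of each gene, and per gene the 2 largest positive and 2 largest negative rank differences without overlap. NFKB2 +1.5 kb, NFKB2 +5.5 kb, REL +80.2 kb, REL +4.4 kb and NFKB1 +119.5 kb fall outside the rule and were chosen after their values were seen. Fold ratios of sites and promoters are ratios of geometric means. Replicate numbers were not used as pairs in the main tests. The rank deviations of same-numbered libraries correlated at −0.01, which cannot decide whether those libraries shared a day or batch. The background was higher in replicate 1 than in replicate 2 in both groups (3.59 and 2.24 untreated, 2.63 and 1.85 with TWEAK). Alternatives covered peak strength, list size, overlap, distance, start sites, each library left out, pileup over background and a replicate block.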

Additional observations from a re-analysis of the deposited data

How the results depend on the processing

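Leaving out 1 library at a time moved the counts. The difference in subunit peaks ranged from −5.0 (without the first untreated library) to 16.0, gained sites from 22 to 36, lost sites from 12 to 42, higher sites from 32 to 43, lower sites from 66 to 77, the rank difference from −4.97 to 0.98 (without the second TWEAK library) and the promoter rank difference from 0.09 to 1.41. With a library left out fewer lists have to concur, which by itself raises the counts. Over all sites the shares ranged from 6.54% to 11.6% for gained, 6.56% to 15.9% for lost, 20.2% to 31.4% for higher and 42% to 57.6% for lower ones. Gained sites numbered 7 of 184 with peaks within 500 bp joined (3.57% over all sites) and 7 of 162 within 50 kb (3.6%). Lost sites numbered 4 of 205 with deposited values of at least 5 (3.36% over all sites). They numbered 13 of 344 with an overlap of 250 bp (3.78%). Lower sites within 50 kb numbered 24 of the 71 in all 4 lists (35.4% over all sites). By pileup over background, 50 sites were higher and 18 lower (34.8% and 12.2% over all sites), and the rank difference became a difference of 0.7. With a replicate block the differences of 5.5, −3.98 and 0.75 had exact permutation p of 1, 0.5 and 0.5, the smallest p under the block being 0.5. Whether the shared numbers pair the libraries is not known, and the block affects only the p-values. With deposited values of at least 5, NFKB2 +11.7 kb counted as gained and RELA +65.2 kb as lost, and RELB −10.3 kb, NFKB2 +99.1 kb, REL −22.9 kb and NFKB1 −7.4 kb were no longer in all 4 lists. With the lists limited to the length of the shortest, RELB −10.3 kb and NFKB2 +11.7 kb were not in all 4 lists. No explanation for these dependences was tested, and with pileups of 7 to 10 as the smallest listed, weaker openness was not detectable.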
